A study of Homo sapiens with 24 samples.

Results

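Immediate early genes are transcribed within minutes of a growth factor, stress or cytokine signal, without new protein synthesis, and most of their messages decay fast. In epithelial cells the signal usually runs through the MAP kinases to factors already bound at the promoter, such as the serum response factor SRF and the ATF and CREB proteins. The JUN and FOS proteins they produce pair through leucine zippers into the AP-1 transcription factor, while other members of the response act as feedback regulators that shut the signal down. The 10 genes described here were chosen by symbol, and all 10 were measured, each by 1 probe set, among 17448 genes. They are JUN and JUNB, which can form AP-1 with one another or with a FOS partner, FOS, FOSB and FOSL1 (also called FRA1), which need a JUN partner, and ATF3, a stress-induced member of the ATF and CREB family. EGR1 is a zinc-finger factor, IER2 a small nuclear protein, DUSP1 a phosphatase that switches MAP kinases off, and ZFP36 (tristetraprolin) an RNA-binding protein that speeds the decay of AU-rich messages.

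The 24 arrays measured total RNA from SW1222, a human cell line established from a colorectal cancer. The 9 groups differ in DPPA3, a small protein of oocytes and early germ cells that binds the DNA methylation factor UHRF1. Cells with doxycycline-induced DPPA3 (3 arrays) and their control line (3 arrays) were grown in Matrigel as megacolonies, here called 3D, with 5 µg/ml doxycycline for the last 5 days. The same lines were grown in 2D with the same dose for 4 hours (3 arrays each), a comparison meant to catch short-term effects. A DPPA3 shRNA line and a control shRNA line (3 arrays each), and the CRISPR knockout clones C66 and C75 and a line with a scrambled guide (2 arrays each), were also grown in 3D, and the labels name no drug for them. All cultures had 21% oxygen. Both lines of the induction experiment received the drug, and the induced line without it was not analysed here, so a response to DPPA3 and a standing difference between the lines cannot be told apart. Each knockout group is 1 clone, so an effect of losing DPPA3 and a trait of the clone cannot be told apart either. The labels do not say whether the arrays of a group were separate cultures, and p-values then measure only the spread between these arrays. In RNA from whole cultures, fewer cells with a message and less message per cell cannot be told apart.

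Values are log2 signals from the authors' RMA processing, and 1 unit is a doubling. All 12 listed colorectal epithelial markers had mean signals above those of at least 82.7% of genes. Fibroblast markers (10 measured) and leukocyte and endothelial markers (8 measured) had median positions above only 16.3% and 16.9% of genes. DPPA3 itself read 3.77 to 4.74 with induction in 3D, against 2.59 to 2.99 in the control line, and 4.18 to 6.16 with induction in 2D, against 2.83 to 3.47 in the control line. Its signal was dim in the knockdown and knockout experiments (2.55 to 3.19), and no loss of it was measurable there: the log2 fold change was -0.04 with the shRNA, -0.16 in C66 and 0.19 in C75, and limma's adjusted p was 0.9996, 0.971 and 0.983.

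The members sat at different places on the array's scale. JUNB, ZFP36 and EGR1 were brighter, as means over the 24 arrays, than 87.9%, 79.7% and 75.0% of genes, and FOSL1 than 67.0%. JUN, IER2, FOS and FOSB lay near the middle (56.8%, 55.3%, 47.0% and 41.2%), and ATF3 and DUSP1 near the dim end (31.9% and 27.9%). These are positions of probe sets and do not rank the genes by RNA. JUN and FOS covered the widest range over the arrays, 1.68 and 1.49 log2 units, and ATF3 the narrowest, 0.51 units.

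The upstream sequences of JUN and EGR1 are shown because both genes changed in comparisons given below, and the elements in them were chosen for display after their matches were seen. Capitals mark, in JUN, the matches to TTACCTCA and TGACNTCA, the kind of element through which JUN and ATF2 act on the JUN gene itself. In EGR1 they mark the CArG boxes that SRF binds. Each sequence is the 250 bases before the RefSeq start site in GRCh38.p14, from chr1:58784048-58784297 on the minus strand for JUN and from chr5:138465229-138465478 on the plus strand for EGR1.
JUN: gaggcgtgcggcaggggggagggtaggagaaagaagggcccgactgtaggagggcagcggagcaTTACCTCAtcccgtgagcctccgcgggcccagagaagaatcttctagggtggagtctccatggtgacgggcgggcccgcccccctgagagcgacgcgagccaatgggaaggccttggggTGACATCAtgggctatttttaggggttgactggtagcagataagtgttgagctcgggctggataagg
EGR1: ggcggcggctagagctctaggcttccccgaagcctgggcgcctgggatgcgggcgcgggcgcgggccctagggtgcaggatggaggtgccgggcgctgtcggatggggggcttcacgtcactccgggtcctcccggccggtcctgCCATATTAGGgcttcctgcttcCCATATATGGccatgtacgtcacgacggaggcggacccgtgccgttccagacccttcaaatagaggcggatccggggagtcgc
ATF3 and DUSP1 hold a TGACNTCA match as well, shown with 8 bases on each side from chr1:212565276-212565299 (plus strand) and chr5:172771305-172771328 (minus strand) because it is the element they share with JUN.
ATF3: ctatgataTGACATCAtatggcca
DUSP1: agggcgggTGACGTCAccgccccg

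Windows from 250 bases before to 50 after the start were found for 9 of the 10 members, 10 windows in all because ATF3 has 2 start sites, and FOSL1 had none in the table used. Of 9 motifs searched, 7 had a match in at least 1 member. TGACNTCA, searched on both strands, was in the windows of JUN (position -67), ATF3 (-123), DUSP1 (-125) and ZFP36 (5, after the start), 4 of the 10 windows, and in 7.72% of all 35116 windows. The stricter form TGACGTCA was in DUSP1 alone and in 1.85% of windows, and TTACCTCA in JUN alone (-186) and in 0.715%. A CArG box was in EGR1 alone, at -105 and -83, and in 1.29% of windows. TATAA, searched on the given strand, was in 6 of the 10 windows (ATF3, DUSP1, FOS, FOSB, JUNB and ZFP36) and in 14.8% of windows. It lay at -230 from the second ATF3 start, not the one with the TGACNTCA match, and between -33 and -30 in the other 5. The half-site TGACG, which overlaps the full element, was in 7 of the 10 on either strand (all but those of ATF3 and ZFP36) and in 24.6% of windows. The ETS core CCGGAA was in FOSB and IER2 and in 17.2% of windows. The AP-1 site (4.95% of windows) and the EGR site GCGTGGGCG (0.795%) were in no member's window. A match is a run of letters only, and a missing match says nothing about sites outside the window.

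**Figure D1:**
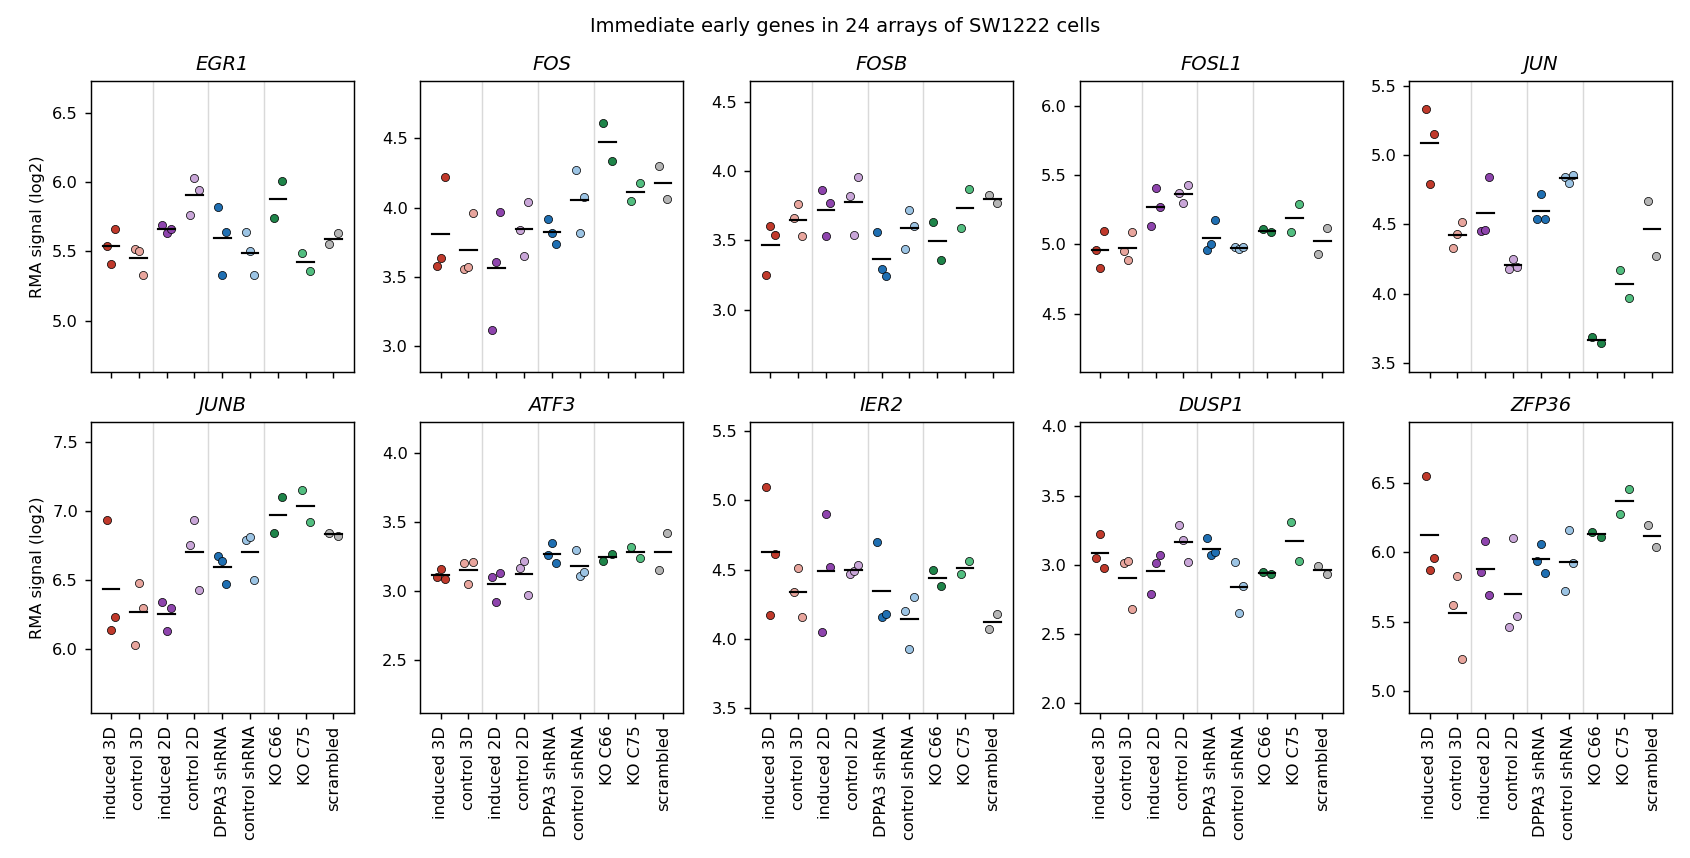
RMA signal (log2, vertical axis) of the 10 genes in every array; each point is 1 array, each bar the mean of its group, and all panels span the same number of log2 units. JUN has its highest mean in the induced 3D arrays (4.79 to 5.33) and its lowest in knockout clone C66 (3.64 and 3.69).

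With DPPA3 induced for 5 days in 3D, JUN was the only member that rose beyond the threshold, 1 of 10. Of all genes, 5.7% passed in either direction and 2.93% were higher. JUN read 5.33, 4.79 and 5.15 in the induced arrays, against 4.33, 4.43 and 4.52 in the control line. The lowest induced array lay above the highest control array. The log2 fold change was 0.66 (SE 0.13, 95% interval 0.40 to 0.93), or 1.58-fold, with limma's Benjamini-Hochberg adjusted p = 0.00152 over all genes. The call held without any one of the 6 arrays, with log2 fold changes from 0.54 to 0.81 and adjusted p up to 0.0203. The array with the highest JUN, induced replicate 1, had the lowest DPPA3 of its group (3.77, beside 4.54 and 4.74 in replicates 2 and 3). Over the heat shock and handling stress genes the median log2 difference was -0.15 here, with 3 of 11 above 0 and 5 with an unadjusted p under 0.05. The 1 of them that passed was higher, HSPB1 (0.68, adjusted p = 0.0119), lost without replicate 1 of either line (up to 0.133) and with the variance from these arrays alone (0.0834). Of 12 epithelial markers, 11 were above 0 (median 0.22), 5 had an unadjusted p under 0.05, and none passed by limma. The part of these genes in the result was not tested.

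ZFP36, the message-decay factor, came next and did not pass. It read 6.55, 5.87 and 5.96 in the induced arrays, against 5.62, 5.83 and 5.23 in the control line. The groups did not overlap, which was so for 2 of the 10 members and for 18.3% of all genes. Induction went with a difference of 0.57 log2 units (SE 0.18, limma's adjusted p = 0.0566). Without induced replicate 1 it was 0.35 (adjusted p = 0.384), and without induced replicate 2 or control replicate 2 it was 0.70 (adjusted p = 0.0285 and 0.0332). It also passed with trended and robust variances (0.0447) and among genes above the median level (0.0374).

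The remaining 8 members did not pass in 3D, with limma's adjusted p from 0.543 to 0.988, and their groups overlapped. Their log2 fold changes were 0.16 for JUNB, 0.12 for FOS, -0.19 for FOSB, -0.01 for FOSL1, -0.04 for ATF3, 0.08 for EGR1, 0.29 for IER2 and 0.18 for DUSP1. Their 95% intervals together ran from -0.46 to 0.68, and no larger change lay within any of them. The median over the 10 members was 0.14, beside -0.01 over all genes. Induced replicate 1 was the highest array of its group for JUN, JUNB, IER2 and ZFP36, which stood 0.24, 0.50, 0.47 and 0.43 above their group means there. Without it, the log2 fold change was -0.09 for JUNB and 0.05 for IER2.

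After 4 hours of the drug in 2D, no member passed, and 3.13% of all genes did. By limma, 3 of the 10 (JUN, JUNB and EGR1) had an unadjusted p under 0.05, and the same 3 had groups that did not overlap, as had 16.7% of all genes. JUN read 4.45, 4.46 and 4.84 in the induced arrays, against 4.18, 4.25 and 4.19 in the control line, with all induced arrays above all control arrays. Its log2 fold change was 0.37 (SE 0.13, 95% interval 0.11 to 0.64, adjusted p = 0.133), or 0.25 without induced replicate 3 (adjusted p = 0.481). That replicate also had the highest DPPA3, 6.16, beside 4.73 and 4.18 in replicates 1 and 2. JUNB, the JUN relative, read 6.34, 6.13 and 6.30 in the induced arrays, against 6.75, 6.93 and 6.43 in the control line, or -0.45 on the log2 scale (adjusted p = 0.164). EGR1 read 5.69, 5.63 and 5.66 in the induced arrays, against 5.76, 6.03 and 5.94 in the control line (log2 fold change -0.25, adjusted p = 0.362). All induced arrays of both genes lay below all control arrays. Of 12 epithelial markers, 6 were above 0 in these induced arrays (median 0.01). Only 2 of the 12 passed, both lower: CEACAM5 (-0.72, adjusted p = 1.16e-05) and KRT20 (-0.54, adjusted p = 0.0116, lost without induced replicates 1 or 2 or control replicate 3, up to 0.0635). Their part in the members' values was not tested.

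The difference between the 3D and the 2D effect of induction was tested in the same model. No member passed (2 with unadjusted p under 0.05), and 0.241% of all genes did. The difference was 0.29 for JUN (95% interval -0.09 to 0.66, adjusted p = 0.698) and 0.61 for JUNB (0.14 to 1.09, adjusted p = 0.385), or 0.36 for JUNB without induced 3D replicate 1. Of the 10 members 9 were above 0 (median 0.31, beside -0.01 over all genes), and of 12 epithelial markers 10 (median 0.24). CEACAM5 (0.99, adjusted p = 1.96e-04) and KRT20 (0.93, adjusted p = 0.0239) passed among those markers. KRT20 lost the call without induced 3D replicates 1 or 3, control 3D replicate 3 or induced 2D replicates 1 or 2 (up to 0.0613) and with the variance from these arrays alone (0.0654). Their part in the members' values was not tested. No difference between the cultures in the effect of induction was thus detectable for any member at this number of arrays. In both lines the 3D cells had 5 days of the drug and the 2D cells 4 hours, so culture and drug time cannot be told apart.

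**Figure D2:**
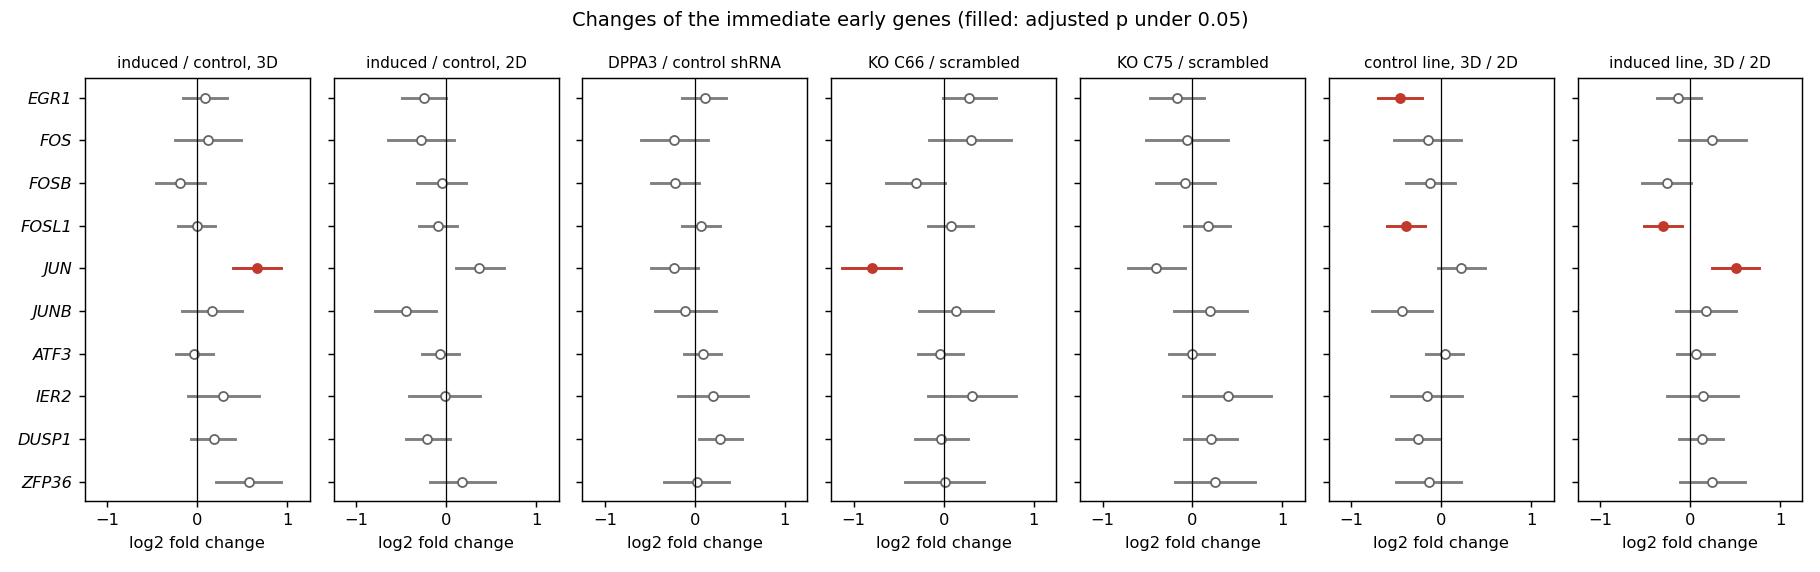
Log2 fold change of each gene (point) with its 95% interval (line) in 7 comparisons, all on the same horizontal scale; filled red points passed at an adjusted p under 0.05. JUN is at 0.66 for induction in 3D and at -0.80 in knockout clone C66, and most other intervals include 0.

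With the DPPA3 shRNA, no member passed, and 0.086% of all genes did. JUN read 4.54, 4.72 and 4.54 with the DPPA3 shRNA, against 4.84, 4.80 and 4.86 with the control shRNA. Every knockdown array lay below every control array, and the log2 fold change was -0.23 (95% interval -0.49 to 0.03, adjusted p = 0.9996 by limma). DUSP1, the MAP kinase phosphatase, read 3.19, 3.07 and 3.09, against 3.02, 2.65 and 2.85 with the control shRNA (0.28 on the log2 scale, adjusted p = 0.826), at a dim signal. It was the 1 member with an unadjusted p under 0.05. JUN and DUSP1 were the 2 members whose groups did not overlap, as 10.8% of all genes did not. Over the 10 members the log2 fold changes lay between -0.23 and 0.28, and the intervals between -0.60 and 0.59. The epithelial marker CEACAM5, 1 of 12, was higher with the DPPA3 shRNA (0.72, adjusted p = 1.02e-04). Of the 12 markers, 6 were above 0 (median 0.01). The part of CEACAM5 in the members' values was not tested.

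In knockout clone C66, JUN fell, the only 1 of 10 members to pass. Of all genes, 1.43% passed and 0.562% were lower. JUN read 3.69 and 3.64 in C66, against 4.67 and 4.27 in the scrambled line. The C66 arrays were the lowest of all 24 for JUN. The log2 fold change was -0.80 (SE 0.16, 95% interval -1.13 to -0.48, adjusted p = 0.00469). The scrambled arrays were 0.40 apart. The call was lost without scrambled replicate 1 (-0.60, adjusted p = 0.189) and without C66 replicate 2 (-0.78, adjusted p = 0.0699), and no member then passed. FOS, at 4.61 and 4.34 in C66 against 4.30 and 4.06 in the scrambled line, differed by 0.30 (adjusted p = 0.791). EGR1, at 5.74 and 6.01 in C66 against 5.55 and 5.63 in the scrambled line, differed by 0.28 (adjusted p = 0.559). FOSB stood at -0.31 and IER2 at 0.32 (adjusted p = 0.583 and 0.791). The other 5 members lay between -0.04 and 0.14. Groups of 2 did not overlap for 5 of the 10 members and for 42.9% of all genes.

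In clone C75 no member passed, against 0.619% of all genes, and JUN was the 1 member with an unadjusted p under 0.05. It read 4.17 and 3.97 in C75, against the same scrambled arrays (4.67 and 4.27). Both C75 arrays lay below both control arrays, and the log2 fold change was -0.40 (SE 0.16, 95% interval -0.72 to -0.08, adjusted p = 0.435). It was -0.20 without scrambled replicate 1 and -0.60 without scrambled replicate 2. IER2 read 4.47 and 4.56 in C75, against 4.07 and 4.18 in the scrambled line, a difference of 0.39 (adjusted p = 0.763). Groups did not overlap for 6 of the 10 members and for 40.5% of all genes. Both clones were set against the same 2 control arrays, so their values are not independent of each other.

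Between the clones, C66 over C75, no member passed, 2 had an unadjusted p under 0.05, and 2.9% of all genes passed. JUN differed by -0.40 (95% interval -0.73 to -0.08, adjusted p = 0.266). EGR1 read 5.74 and 6.01 in C66, against 5.49 and 5.36 in C75, a difference of 0.45 (95% interval 0.15 to 0.75, adjusted p = 0.115). For JUN and EGR1 the arrays of the clones did not overlap, as they did not for 5 of the 10 members and for 41.8% of all genes. Of 8 measured leukocyte and endothelial markers, 1, the lysosomal protein CD68, was higher in C66 than in the scrambled line (0.71, adjusted p = 0.0108), a call lost without scrambled replicate 1 or 2 or C66 replicate 2 (adjusted p up to 0.218). The pan-leukocyte marker PTPRC was brighter than only 1.62% of genes over the arrays, and the mean signal of that list ran from 2.80 to 2.96 across the 9 groups. Of 12 epithelial markers, 1, KRT20, was higher in C66 (0.61, adjusted p = 0.0415, lost without either scrambled array or C66 replicate 1, up to 0.510, and with the variance from these arrays alone, 0.0852). In C66 over the scrambled line 9 of 12 epithelial markers (median 0.17) and 3 of 8 leukocyte and endothelial markers (median -0.01) were above 0. C66 over C75, CD68 differed by 1.08, KRT20 by 0.97 and CEACAM5 by 0.70 (adjusted p = 5.38e-05, 2.09e-04 and 1.79e-04). The lists as wholes did not follow: 5 of 12 epithelial markers (median -0.06) and 1 of 8 leukocyte and endothelial markers (median -0.09) were above 0 there. The part of these markers in the members' values was not tested.

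JUN was also examined beside its neighbours on chromosome 1, a comparison added after its values were seen. The neighbours were the 10 genes on each side of it in RefSeq order with a mean above the median of all genes. With induction in 3D their median log2 fold change was 0.04, 11 of 20 were above 0 (the highest NFIA at 0.24), and 1, L1TD1, was lower (-0.78). No neighbour passed as higher, and 3 had an unadjusted p under 0.05 by limma. In C66 the median was -0.04, 8 of 20 were above 0, the lowest was L1TD1 (-0.38), and none passed by limma (3 with an unadjusted p under 0.05). In C75 the median was -0.01, 10 of 20 were above 0, and none passed (2 with an unadjusted p under 0.05). In the induced line, 3D over 2D, where JUN rose by 0.51, the median was 0.12 and 13 of 20 were above 0. Of the neighbours 7 were higher and 1 lower there, beside 7.55% and 7.35% of all genes. In the control line, 3D over 2D, where JUN did not pass, the median was 0.15 and 13 of 20 were above 0. There 4 were higher and 1 lower, beside 4.92% and 2.88% of all genes. The part of the neighbours in these JUN values was not tested. Neighbours were computed for the other members too. Those of ATF3, also on chromosome 1, had a median of 0.37 with induction in 3D (18 of 20 above 0, 9 higher, beside 2.93% of all genes). With induction in 2D it was 0.35 (18 of 20 above 0, 7 higher, beside 1.87% of all genes). ATF3 itself, at a dim signal, was at -0.04 and -0.07, and this was not tested further. For the remaining members the medians with induction in 3D lay between -0.08 (FOS) and 0.09 (DUSP1).

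**Figure D3:**
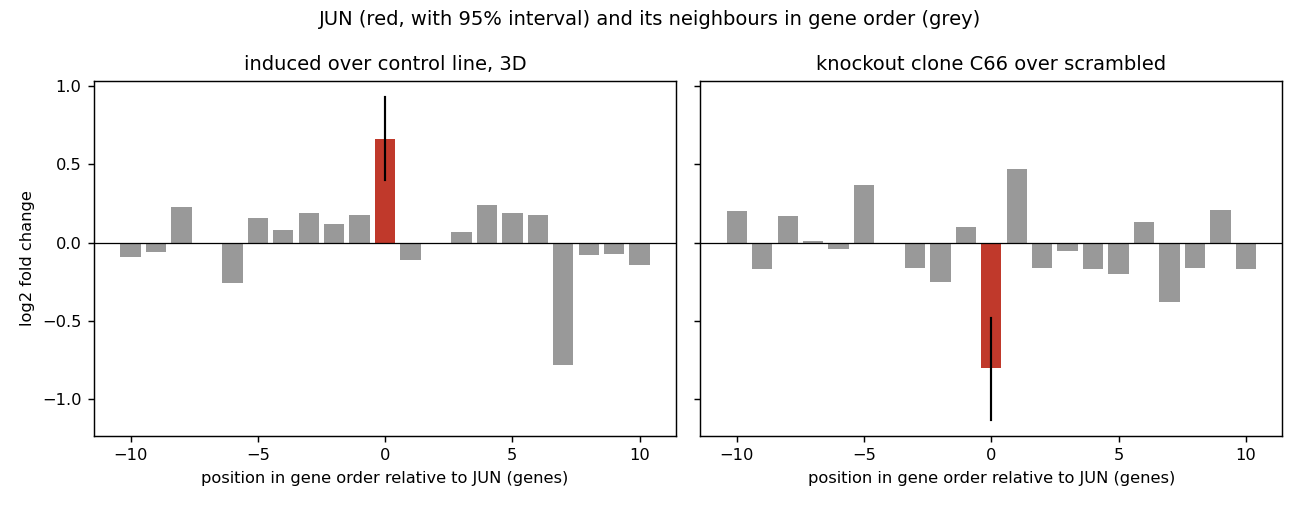
Log2 fold change (vertical axis) of JUN (red bar, with its 95% interval as a line) and of 10 neighbours on each side in gene order (grey bars), for induction in 3D on the left and clone C66 on the right. The neighbours scatter about 0, with medians of 0.04 and -0.04, and the neighbour at -0.78 on the left is L1TD1.

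Over the 9 groups, JUN ran from 5.09 ± 0.27 with induction in 3D (SD, n = 3) down to 3.67 ± 0.04 in C66 (SD, n = 2). Between them came the control shRNA line (4.83), the DPPA3 shRNA line (4.60), the induced line in 2D (4.58), the scrambled line (4.47), the control line in 3D (4.43), the control line in 2D (4.21) and C75 (4.07). Arrays overlapped between neighbours in that order from the DPPA3 shRNA line to the control line in 3D, and between the 2 highest groups. The 4 control groups themselves ran from 4.21 to 4.83. The order over experiments is a description, and tests were made only within the comparisons given. The mean of EGR1 ran from 5.91 ± 0.14 in the control line in 2D (SD, n = 3), whose arrays overlapped those of C66 (5.87), to 5.42 ± 0.09 in C75 (SD, n = 2), whose arrays overlapped those of the control line in 3D (5.45). The only neighbours in its order that did not overlap were C66 and the induced line in 2D (5.66). FOSL1 ran from 5.36 ± 0.07 in the control line in 2D (SD, n = 3) through 5.27 ± 0.14 in the induced line in 2D (SD, n = 3) and 5.19 in C75 to 4.97 in both the induced and the control line in 3D, and all neighbours in its order overlapped. For JUNB the highest means were in C75, C66 and the scrambled line (7.03, 6.97 and 6.83), and all neighbours in its order overlapped. For FOS the highest mean was in C66 (4.47), above the arrays of the scrambled line (4.18), and all lower neighbours overlapped.

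FOSL1 and EGR1 were lower in 3D than in 2D in the control line, where culture and drug time (5 days against 4 hours) differ together and cannot be told apart. In that comparison 2 of 10 members fell and none rose, whereas 7.8% of all genes passed and 2.88% were lower. EGR1 read 5.52, 5.50 and 5.33 in 3D, against 5.76, 6.03 and 5.94 in 2D, with no overlap (log2 fold change -0.46, SE 0.12, adjusted p = 0.0174). FOSL1, a FOS relative known for its ties to invasion, read 4.95, 4.89 and 5.09 in 3D, against 5.37, 5.30 and 5.43 in 2D, again with no overlap (-0.39, SE 0.10, adjusted p = 0.0182). EGR1 lost the call without control 3D replicate 3 or control 2D replicates 2 or 3 (-0.40, -0.40 and -0.44, adjusted p = 0.0694, 0.069 and 0.0564). FOSL1 lost it without control 3D replicates 1 or 2 or control 2D replicate 3 (-0.38, -0.35 and -0.36, adjusted p = 0.0596, 0.0807 and 0.0697). With the variance from these 6 arrays alone neither passed (adjusted p = 0.0583 and 0.0863). JUNB stood at -0.44 (adjusted p = 0.104) and JUN at 0.22 (adjusted p = 0.329). JUN, EGR1 and FOSL1 were the 3 members whose groups did not overlap, which held for 23.2% of all genes. The median over the members was -0.16, with 8 of 10 below 0, beside a median of -0.02 over all genes.

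In the induced line, 3D over 2D, JUN rose and FOSL1 fell, 2 of 10 members. Of all genes, 14.9% passed, 7.55% higher and 7.35% lower. For JUN the arrays were 5.33, 4.79 and 5.15 in 3D, against 4.45, 4.46 and 4.84 in 2D, and they overlapped at 1 array on each side. JUN differed by 0.51 log2 units (SE 0.13, limma's adjusted p = 0.00695), or 0.39 without induced 3D replicate 1 (adjusted p = 0.0662). FOSL1 read 4.96, 4.83 and 5.10 in 3D, against 5.13, 5.41 and 5.27 in 2D. It was the only member whose groups did not overlap here, as 28.4% of all genes did not. Its log2 fold change was -0.30 (SE 0.10, adjusted p = 0.0432), lost without induced 3D replicates 1 or 2 (-0.30 and -0.24, adjusted p = 0.099 and 0.182) and without induced 2D replicates 2 or 3 (-0.24 and -0.30, adjusted p = 0.195 and 0.0953). It was also lost with trended and robust variances (0.0741) and with the variance from these arrays alone (0.138). EGR1 stood at -0.13 (95% interval -0.37 to 0.12, adjusted p = 0.554). Of 11 measured heat shock and chaperone genes, which handling can move, 5 were lower in 3D in this line and 2 in the control line. They included DNAJA1 (-0.82), HSP90AB1 (-0.64) and HSPD1 (-0.45) here, and HSP90AB1 (-0.45) and HSP90AA1 (-0.38) in the control line. HSP90AA1 lost its call there without any array except control 2D replicate 1, and HSP90AB1 without control 3D replicate 3 or control 2D replicates 1 or 2 (adjusted p up to 0.0853 and 0.150), and both with the variance from these arrays alone. In the induced line 4 of 12 epithelial markers were higher in 3D, CEACAM5 by 0.88, KRT20 by 0.62 and KRT19 by 0.44 among them. The part of these genes in the changes of the members was not tested.

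The members did not move as a block from array to array. Over the 24 arrays, which share groups and experiments, the 45 pairs of members had a median Pearson's r of 0.03 (range -0.41 to 0.58), and 25 were above 0. After each gene was centred on its group mean, the median was -0.03 (range -0.50 to 0.53), and 21 of 45 were above 0. The highest of these within-group values were 0.53 for JUNB and ZFP36, 0.49 for JUN and JUNB, and 0.48 for FOS and FOSL1. The lowest was -0.50 for FOS and ZFP36. JUNB, ZFP36 and JUN were all high in induced 3D replicate 1, by 0.50, 0.43 and 0.24 over their group means. The part of that array in their correlations was not tested. In groups of 2 the deviations of a gene are equal and opposite. FOS and IER2 spread widely among arrays of a group, as with 3.12, 3.61 and 3.97 for FOS and 4.05, 4.90 and 4.52 for IER2 in the induced line in 2D, whereas FOSL1 arrays of the control shRNA line read 4.98, 4.97 and 4.98.

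**Figure D4:**
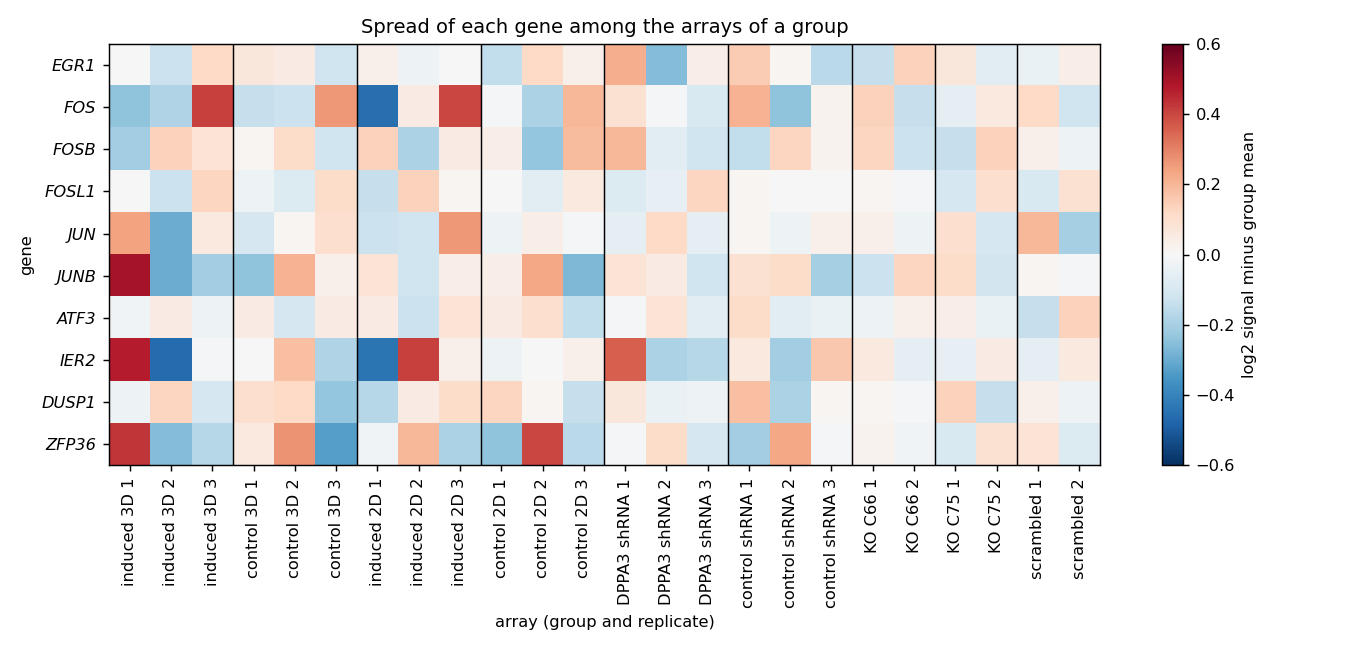
Log2 signal of each gene (rows) minus its group mean in each of the 24 arrays (columns, black lines between groups); red is above and blue below the group mean. JUNB, IER2 and ZFP36 are high together in induced 3D replicate 1 (0.50, 0.47 and 0.43 above their group means), where 5 of the 10 genes are above. No array is above the group mean for all 10 genes. Induced 2D replicate 3 is above it for 9, by 0.08 on average over the 10.

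Outside the 10 members, the gene whose signal followed JUN most closely over the 24 arrays was LGALS1 (Pearson's r = 0.854). PCSK1N followed FOSL1 (r = 0.789), SKOR1 EGR1 (0.693), GRHL3 FOS (0.751), LAPTM4A JUNB (0.762) and JUP ZFP36 (0.779). IER2 was followed by VPS53 (0.788), ATF3 by TRIM33 (0.779), FOSB by ZNF562 (0.665) and DUSP1 by RASEF (0.597). For the mean of the 10 centred members these were PCYOX1 (0.779), LRATD1 (0.683), EEIG1 (0.680), SEC31A (0.668) and SOX9 (0.667). These are the highest values among all genes above the median level, over arrays that share groups, and describe likeness only.

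Other parts of the pathway were read from lists set by the genes' known roles. Of 30 further immediate early genes that were measured, none passed by limma with induction in 3D or 2D, with the shRNA or in either clone over the scrambled line (2, 2, 0, 3 and 3 had an unadjusted p under 0.05). In 3D over 2D, 1 was higher in the control line and 2 in the induced line. BTG1, a growth-restraining gene, rose by 0.77 in the control line and by 1.17 in the induced line (adjusted p = 0.00109 and 2.61e-06), and the intestinal differentiation factor KLF4 by 0.64 in the induced line (adjusted p = 2.82e-04). The list's median was -0.02 in the control line, beside -0.02 over all genes. Of 17 AP-1, CREB and ATF partners, BATF3 fell by 0.48 in the control line in 3D (adjusted p = 0.00553). It was dim there, with means of 3.15 in 3D and 3.63 in 2D, beside a median gene mean of 4.088. ATF2, a JUN partner, rose by 0.46 in the control line and 0.35 in the induced line (adjusted p = 0.00941 and 0.0296). ATF2 lost the call without control 3D replicate 2 (adjusted p = 0.0701), and in the induced line without induced 3D replicates 1 or 3 or induced 2D replicates 2 or 3 (adjusted p up to 0.109). With the variance from the compared arrays alone, BATF3 and ATF2 did not pass (0.057 and 0.0578 in the control line, and 0.0572 for ATF2 in the induced line), nor did ATF2 in the induced line with arrays centred on their medians (0.0555). Of 21 listed genes of SRF, its cofactors and the MAP kinases, only 14 were measured. None of these 14 passed by limma with induction, with the shRNA or in the clones over the scrambled line (3, 2, 0, 5 and 1 had an unadjusted p under 0.05). ELK3 alone differed between the clones (0.68, adjusted p = 0.0292, lost without any one of the 4 arrays, up to 0.308).

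Downstream of the kinases, 2 of 20 ERK feedback and delayed early genes were higher with induction in 3D and none lower, beside 2.93% of all genes higher. They were the ETS factor ETV4 (log2 fold change 0.52, adjusted p = 0.0443) and PHLDA1 (0.36, adjusted p = 0.0451). Both lost the call without induced replicates 1 or 3 or control replicate 3, and ETV4 also without control replicate 1 (adjusted p up to 0.324 and 0.271). Neither passed with the variance from these arrays alone (0.253 and 0.217). In the induced line, 3D over 2D, ETV5 and ETV4 rose by 0.79 and 0.72 (adjusted p = 2.12e-04 and 0.0016). The feedback inhibitor SPRY2 was higher in C66 than in the scrambled line (0.61, adjusted p = 0.0484) and than in C75 (0.74, adjusted p = 0.00563). The first call was lost without any one of the 4 arrays (adjusted p up to 0.392) and with trended and robust variances (0.0523), and the second without C66 replicate 1 or either C75 array (adjusted p up to 0.115).

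In a list of EGF receptors and ligands, which also held the receptor MET, 11 genes were measured. The ligand EREG rose with induction by 0.96 in 3D and by 0.90 in 2D (limma's adjusted p = 1.21e-04 and 4.42e-04). It was the 1 of 11 that passed in 3D and 1 of 2 in 2D, the other being EGF (0.43, adjusted p = 0.0265), which lost the call without any one array except control replicate 1 (adjusted p up to 0.136) and with the variance from these arrays alone (0.110). EREG averaged 6.32 ± 0.33 with induction in 3D and 5.36 ± 0.08 in its control line, and 6.96 ± 0.05 with induction in 2D and 6.06 ± 0.09 in its control line (SD, n = 3 each). It was lower in 3D than in 2D, with log2 fold changes of -0.69 in the control line and -0.63 in the induced line (adjusted p = 0.00433 and 0.00406), while EGF (0.60 and 0.52) and the receptor ERBB2 (0.50 and 0.57) were higher. In C66, the receptors EGFR (-0.52) and MET (-0.48) were lower than in the scrambled line (adjusted p = 0.0475 and 0.0464). Each lost the call without any one of the 4 arrays (up to 0.387 and 0.341) and with the variance from these arrays alone (0.0693 and 0.0841). EGFR also lost it with trended and robust variances (limma's adjusted p = 0.0771), and MET with arrays centred on their medians (0.062). C66 over C75, EGFR differed by -0.77 (adjusted p = 7.59e-04) and EREG by -0.77 (adjusted p = 0.0148), the EREG call lost without C66 replicate 2 or either C75 array (up to 0.252).

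Of 16 genes described as AP-1 targets, 1 was higher and 1 lower with induction in 3D. TIMP1, an inhibitor of matrix metalloproteinases, was lower with induction in 3D and 2D (-1.75 and -1.68, adjusted p = 1.53e-07 and 4.52e-07), higher in C66 (1.42, adjusted p = 2.04e-04) and lower in C75 (-1.12, adjusted p = 0.00404, lost without scrambled replicate 1 or C75 replicate 2, up to 0.128). The higher one with induction in 3D was VEGFA (0.56, adjusted p = 0.0139, lost without induced replicate 1 or control replicate 3, up to 0.0731). TIMP1 was the only one of the 16 that passed with induction in 2D or in either clone over the scrambled line. VEGFA, an angiogenic factor that also answers to low oxygen, was higher in 3D than in 2D by 1.12 in the control line and 1.81 in the induced line. In the induced line 2 of the 16 were lower in 3D, the glutathione synthesis gene GCLM (-0.69, adjusted p = 2.75e-04) and the haem oxygenase HMOX1 (-0.40, adjusted p = 0.0395, lost without induced replicates 1 or 2 of either culture, up to 0.186, and with the variance from these arrays alone, 0.0739). C66 over C75, TIMP1 differed by 2.54 (adjusted p = 1.25e-08), TGFB1 by 0.53 and HMOX1 by -0.57 (adjusted p = 0.0343 and 0.0495, each lost without any one of the 4 arrays and with the variance from these arrays alone, HMOX1 also with trended and robust variances). TGFB1 was dim, with means of 3.26 in C66 and 2.73 in C75. The median of the list with induction in 3D was 0.01, beside -0.01 over all genes. Among 14 AU-rich messages bound by ZFP36, VEGFA was the only one that passed with induction in 3D. The cytokine IL1A fell by 0.96 in C75 (adjusted p = 0.00978, lost without scrambled replicate 1 or C75 replicate 2, up to 0.285). In 3D over 2D, the kinase PIM1 was lower in the control line (-0.43, adjusted p = 0.0368, lost without any array except control 2D replicate 2, up to 0.142, and with the variance from these arrays alone, 0.0727) and IL1B higher in the induced line (0.72, adjusted p = 0.003).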

How the data were processed

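Biotin-labelled total RNA, isolated with Trizol per the labels' protocols, was hybridised to expression arrays. The deposited values are log2 signals from the authors' RMA in Partek 6.6 (submitters' processing notes). RMA subtracts background, gives all arrays the same distribution and combines each set's probes. No source used here names the genome build of the probe sets. The table held 20276 probe sets on 24 arrays (values 1.56 to 12.51, array medians 4.007 to 4.119). Of these, 18062 carried 1 gene symbol, 1288 several and 926 none in the annotation used, and the brightest probe set was kept for each of 17448 genes. The number of arrays limits the precision.

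A single limma 3.58.1 model (R 4.3.3) held a coefficient for each of the 9 groups (15 residual and 9.81 prior degrees of freedom). The 9 comparisons were tested 2-sided, with Benjamini-Hochberg adjustment over all genes and a threshold of 0.05. The fit was tested on simulated data. The members, lists and rules were chosen with earlier results of these data known, and the motifs and the neighbours of JUN and the other members after the values were seen. All members were described, and up to 3 genes with the smallest p among those that passed were taken from each other list and comparison. Genes like a member were taken from those above the median level without a LOC or LINC symbol. Promoter sequences and gene order are from NCBI RefSeq (GRCh38.p14). Alternatives were the replicate number as a block, the variance from the compared arrays alone, trended and robust variances, the mean of a gene's probe sets, genes above the median level alone, arrays centred on their medians, and each array left out.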

Additional observations from a re-analysis of the deposited data

How the results depend on the processing

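Among 90 values (10 members in 9 comparisons), 6 passed. Over 70 recomputations of those 6, 0 changed sign. Over 974 recomputations of the 84 values that did not pass, 32 changed sign, in 20 values of at most 0.18 in size. With induction in 3D, 2 members (JUN and ZFP36) passed in place of 1 with the replicate block, with trended and robust variances and among genes above the median level, and between 1 and 2 with each array left out. In C66, between 0 and 1 passed with each array left out. In the control line, 3D over 2D, 0 of the 2 passed with the variance from these 6 arrays alone, and 0 to 2 with each array left out. In the induced line, 3D over 2D, 1 (JUN) passed with trended and robust variances and 1 with the variance from these arrays alone, against 2, and 0 to 2 with each array left out. The cause was not tested. With each array left out, and under every alternative run, 0 members passed with induction in 2D, with the shRNA, in C75, between the clones and for the difference of the effects. In groups of 3 the replicate numbers did not pair the arrays: same-numbered arrays of compared groups had deviations correlated at r = -0.209 to 0.168, and arrays were not all most like their own number in any such comparison (0 to 2 of 3). In the knockout comparisons, with groups of 2, r was 0.009 to 0.094 and 2 of 2 arrays were most like their own number. Groups of 2 can only give all or none there, so pairing could not be judged in them. Beside ZFP36 (adjusted p = 0.0356 with induction in 3D), the replicate block changed no member's call. Of the other genes named above, it ended the calls of PHLDA1 with induction in 3D (0.0607) and of SPRY2, EGFR and MET in C66 (0.068, 0.055 and 0.052) and of HMOX1, C66 over C75 (0.0638). Counts over all genes moved by more than 1.5 times with the variance from the compared arrays alone: 468 in place of 995 with induction in 3D, 314 in place of 546 in 2D, 562 in place of 1361 for the control line, 3D over 2D, and 7 in place of 42 for the difference of the effects. Leaving out each array gave 663 to 989 in place of 995 with induction in 3D, 8 to 12 in place of 15 with the shRNA, 89 to 120 in place of 250 in C66, 38 to 67 in place of 108 in C75, 259 to 270 in place of 506 between the clones, 875 to 1221 in place of 1361 for the control line, 3D over 2D, and 11 to 70 in place of 42 for the difference of the effects. ATF3 and DUSP1 were dim, which limits what could be seen of them.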
